A study of Mus musculus with 10 samples.

Results

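The Reg genes encode small secreted lectins, and 7 of them were followed in RNA sequencing of mouse pancreas: Reg1, Reg2, Reg3a, Reg3b, Reg3d, Reg3g and Reg4. They were taken by symbol from the deposited table of gene counts, where they are 7 of 24421 genes, and the rule used no measured value. Each library was made from the pancreas tail of 1 female mouse aged 12 weeks, as a frozen and pulverised piece. All mice carried Ptf1aCreER, a tamoxifen-activated Cre recombinase driven by Ptf1a, which in the adult pancreas is a gene of the acinar cells, and the nuclear fluorescent reporter nTnG. The insulin receptor gene Insr set the groups apart, through floxed alleles that Cre can remove. There were 3 libraries labelled Insr WT (Insr w/w, 0 floxed alleles), 3 labelled Insr Het (Insr w/f, 1 floxed allele) and 4 labelled Insr KO (Insr f/f, 2 floxed alleles). The labels count 4 WT mice, of which 1 was not analysed here, and the tamoxifen schedule and the diet are not given in the sources used here. Cells of the piece in which Ptf1a is not active keep their floxed alleles, so each library mixes targeted and untargeted cells. By its title, the series asks what the insulin receptor of acinar cells does to digestive enzymes and inflammation.

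Reg proteins have a C-type lectin fold and are secreted, in the pancreas mostly by acinar cells into the pancreatic juice. Reg1 and Reg2 are the mouse counterparts of lithostathine, an abundant protein of that juice. Reg3b, known as pancreatitis-associated protein, and its relatives Reg3a and Reg3g are low in undisturbed acinar cells, are induced when the pancreas is inflamed, and in the gut Reg3b and Reg3g act against bacteria. Cytokines that signal through STAT3, such as those of the interleukin-6 family and interleukin-22, are known inducers of the Reg3 genes, and the membrane protein EXTL3 has been described as a receptor for Reg proteins.

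Total gene counts were 11718559 to 19024351 per library. A count of 0 leaves room for up to 3 counts, or 0.158 to 0.256 counts-per-million (CPM) of the unscaled gene counts. Except where stated, CPM values below use the library size scaled by TMM, edgeR's correction for the makeup of the library. CPM in a library then need not add up to a fixed total. Libraries are named by genotype label and mouse number. WT-2404 stood apart from the others: genes of a list of acinar markers took 16.6% of its gene counts, against 61.2% for WT-1860 and 74.6% for WT-2067, 74.4% to 79.3% in the Het libraries and 65.4% to 80.8% in the KO libraries. Its TMM factor was the highest, at 3.53, where KO-2126 had the lowest, at 0.596. For the Reg genes, and for gene lists where stated, differences from WT are therefore also given without WT-2404. Mean ± SD levels of Insr were 29.8 ± 9.88 CPM over the WT (n = 3), 38.5 ± 8.92 over the Het (n = 3) and 31.5 ± 5.95 over the KO libraries (n = 4); below, ± likewise gives the SD over these numbers of mice. Counts over the whole gene in mixed tissue do not show the loss of floxed exons in acinar cells, and therefore Insr does not check the labels.

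On mouse genome build GRCm38, which is mm10, 6 of the 7 genes lie side by side on chromosome 6, in a stretch of 98.2 kb from 78370657 to 78468872 (GENCODE vM21). The stretch holds 6 annotated genes, which are these 6 members. In map order they are Reg3b (78370657 to 78373466, plus strand), Reg3d (78375874 to 78378865, minus strand), Reg3a (78380709 to 78383827, plus strand), Reg2 (78395623 to 78408106, plus strand), Reg1 (78422711 to 78428667, plus strand) and Reg3g (78466269 to 78468872, minus strand). All are protein-coding, and none overlaps another annotated gene. Outside the cluster the nearest protein-coding neighbours are far away, Lrrtm1 at 1113 kb with 8 counts over all libraries and Gm20594 at 1349 kb with 0 counts. Reg4 lies alone on chromosome 3, from 98222156 to 98236748 on the plus strand. The coding transcripts are related in sequence: Reg1 and Reg2 were identical at 78.9% of aligned bases, Reg3a and Reg3b at 75.5%, Reg3b and Reg3g at 74.4%, and Reg3a and Reg3g at 70.3%. Even so, no stretch of 50 bases was shared between any pair of members (0 windows). Some Reg1 windows (3.65%) and Reg2 windows (4.34%) also occur in another annotated gene, so a small part of the counts of these 2 genes is uncertain.

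Bases just before the RefSeq start of 5 members show how alike and unlike the promoters of these neighbours are. The sequences are those of RefSeq on GRCm38.p6, written 5′ to 3′ on each gene's own strand, and each begins 150 bases before the start. Those of Reg1 and Reg2 stop 25 bases before it, and the other 3 run up to the base before it. Capitals mark TATAAA (the TATA box), TTCNNNGAA (the core of a STAT site) and TGACTCA (an AP-1 site), each searched on both strands. The windows are chr6:78425833-78425958 (plus strand) for Reg1, chr6:78405005-78405130 (plus strand) for Reg2, chr6:78370735-78370884 (plus strand) for Reg3b, chr6:78380559-78380708 (plus strand) for Reg3a and chr6:78468875-78469024 (minus strand) for Reg3g.
Reg1: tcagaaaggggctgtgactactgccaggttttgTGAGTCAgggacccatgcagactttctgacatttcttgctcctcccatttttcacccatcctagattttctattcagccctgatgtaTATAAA
Reg2: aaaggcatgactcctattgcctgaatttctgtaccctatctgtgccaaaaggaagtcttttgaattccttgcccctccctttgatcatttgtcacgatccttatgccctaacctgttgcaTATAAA
Reg3b: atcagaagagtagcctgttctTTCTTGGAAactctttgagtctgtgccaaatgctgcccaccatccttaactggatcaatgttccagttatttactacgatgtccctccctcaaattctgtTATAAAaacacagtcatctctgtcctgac
Reg3a: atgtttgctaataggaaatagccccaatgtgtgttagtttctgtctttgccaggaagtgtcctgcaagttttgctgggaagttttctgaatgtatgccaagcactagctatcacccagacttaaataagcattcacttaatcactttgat
Reg3g: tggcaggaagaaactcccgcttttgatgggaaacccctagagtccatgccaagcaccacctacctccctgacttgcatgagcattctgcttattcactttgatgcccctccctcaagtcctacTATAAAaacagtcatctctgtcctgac

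Within the 250 bases before the start, TATAAA was found in 4 of the 7 members and in 13% of all 27025 promoters of the same length. It begins at base -30 in Reg1 and in Reg2, at -29 in Reg3b and at -27 in Reg3g, counting the base before the start as -1, and Reg3g has a further match on the other strand at -161. TTCNNNGAA was found in Reg3b at -129 and in Reg3d at -238, and in 7.18% of all promoters. TGACTCA was found in Reg1 at -117 and in 4.43% of all promoters. The TTTCCC box of sites for the acinar factor PTF1 was found in 4 members and 21.9% of promoters, and the E-box CANNTG in all 7 members and 66% of promoters. The NF-kappaB site was searched only as a single fixed sequence without variable bases. That sequence, TTGCNNCAA (C/EBP) and CAAGGTCA (NR5A2) were found in 0 members, and in 0.13%, 1.78% and 1.31% of promoters. Other forms of the NF-kappaB site were not searched, so whether a member has one was not tested. The motif results are matches of letters, and no binding was measured. The longest run shared by any pair of members is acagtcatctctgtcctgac, the last 20 bases before the start of Reg3b and of Reg3g, and it occurs in 2 promoters of the table, these 2. Reg3a shares at most 12 bases in a row with any other member, in the pair with Reg3d.

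Together the 7 genes took 1.88% (KO-2070, Wilson 95% interval 1.87% to 1.89%) to 3.52% (WT-2067, 3.51% to 3.53%) of all gene counts, and Reg1 with 2543037 counts and Reg2 with 1351189 counts supplied most of them. Reg3b followed with 340077 counts over all libraries, then Reg3a with 146885, Reg3d with 113976, Reg3g with 45753 and Reg4 with 6. Levels of different genes were compared per kb of coding transcript. On that scale Reg1 was above Reg2 in 7 of the 10 libraries, the exceptions being WT-2404, WT-2067 and KO-2079. The Reg2 level was above Reg3b in 10 of 10 libraries, Reg3b above Reg3d in 8, Reg3d above Reg3a in 6 and Reg3a above Reg3g in 10. Neighbours in the order other than Reg2 and Reg3b, and Reg3a and Reg3g, therefore changed places between mice.

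**Figure D1:**
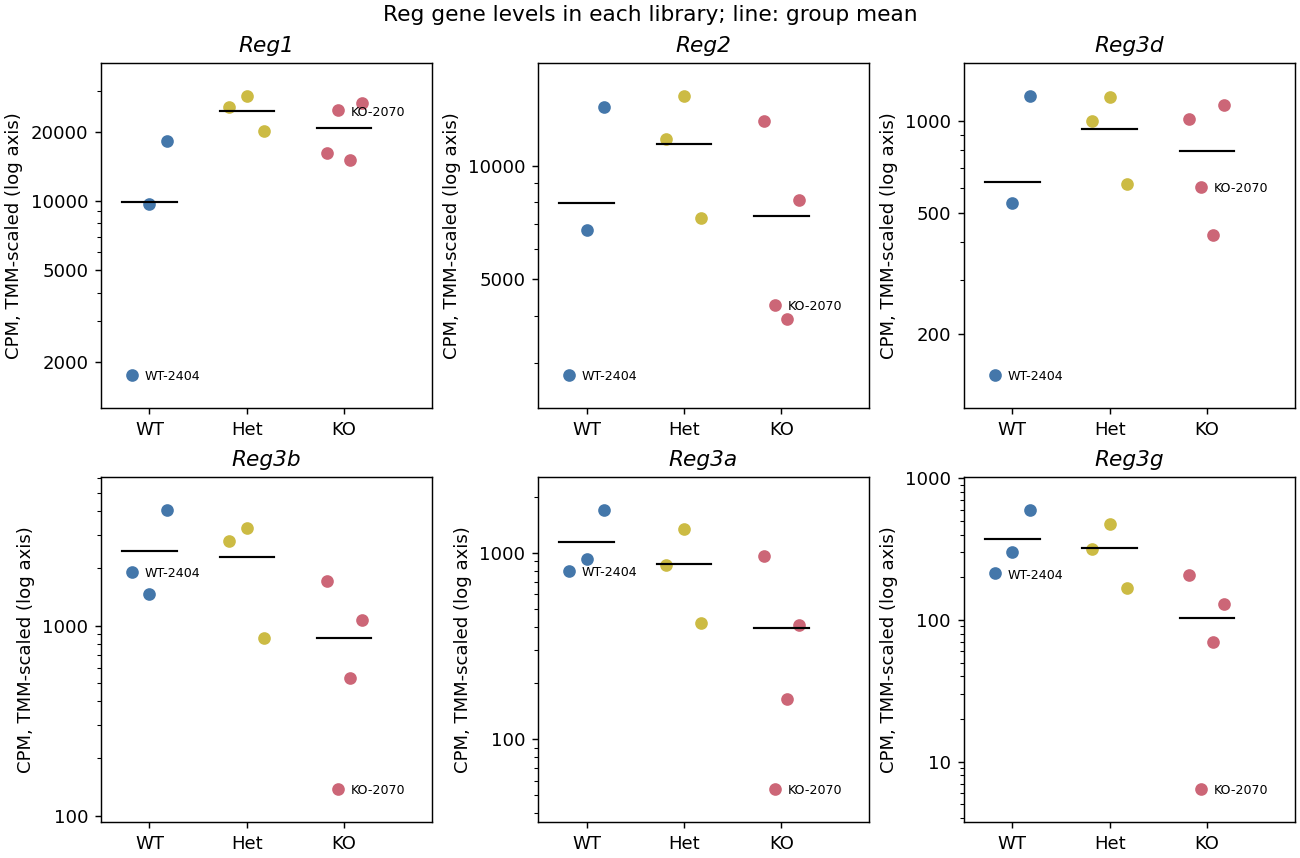
Level of 6 Reg genes in each library, in TMM-scaled CPM on a log axis, with points for single mice, grouped as WT (n = 3), Het (n = 3) and KO (n = 4), and a line at the group mean. The Reg3g points of the KO libraries, 6.45 to 209 CPM, all lie below those of the WT libraries, and WT-2404 is the lowest library for Reg1, Reg2 and Reg3d but not for Reg3a, Reg3b or Reg3g.

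No Reg gene passed the test across all genes in any of the 3 genotype comparisons. Of the 6 members with enough counts to be tested, 0 had an adjusted p under 0.05 by edgeR's quasi-likelihood test for KO against WT, where the share over all 13688 tested genes was 0%, nor did any for Het against WT (0%) or KO against Het (0%). At an unadjusted p under 0.05 edgeR gave 3221, 2714 and 103 genes for the 3 comparisons. DESeq2 called 1009 genes for KO against WT (7.68%), 400 for Het against WT (3.46%) and 0 for KO against Het (0%), and 0 members in each. KO against WT and Het against WT share the WT libraries. In bulk tissue, fewer cells that express a gene and less RNA of it per cell cannot be told apart.

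Reg1, the most abundant member, was read in the WT libraries WT-2404, WT-1860 and WT-2067 at 1754, 9672 and 18192 CPM. The Het libraries stood at 25483, 28414 and 20068 CPM, and the KO libraries at 16183, 24725, 15109 and 26650.0 CPM. All 3 Het libraries lay above all 3 WT libraries, while the KO range overlapped the WT range through WT-2067. The WT, Het and KO means were 9873 ± 8221, 24655 ± 4234 and 20667 ± 5867 CPM. The KO against WT log2 difference was 1.07 (SE 0.72, edgeR adjusted p = 0.376, exact permutation p = 0.0857, two-sided), where the smallest p that 4 against 3 mice allow is 0.0286. Without WT-2404 it was 0.55 (SE 0.44, edgeR adjusted p = 0.676). Het against WT gave 1.32 (SE 0.76, edgeR adjusted p = 0.329), and its exact permutation p was 0.1, below which 3 against 3 mice cannot go. It was 0.83 without WT-2404 (edgeR adjusted p = 0.62) and 2.12 without WT-2067 (edgeR adjusted p = 0.102). KO against Het gave -0.25 (SE 0.70, edgeR adjusted p = 1.0). The WT mice alone spanned more CPM than lay between any 2 group means, and the library lowest in Reg1 was the library with the lowest acinar share, whose part in the difference was not tested.

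Reg2, the neighbour of Reg1 and the member most similar to it in sequence, was also lowest in WT-2404. Its levels were 2786, 6734 and 14327 CPM in WT-2404, WT-1860 and WT-2067, 11790.1, 15269 and 7270.4 CPM in the Het libraries, and 13129, 4272, 3923 and 8120.1 CPM in the KO libraries. All 3 groups overlapped. The KO against WT log2 difference was -0.11 (SE 0.65, edgeR adjusted p = 0.932), which was -0.52 without WT-2404, and its sign was positive without WT-2067, KO-2070 or KO-2124. Het against WT gave 0.53 (SE 0.70, edgeR adjusted p = 0.686), which was 0.12 without WT-2404 and -0.36 with library size alone in place of TMM. KO against Het gave -0.64 (SE 0.65, edgeR adjusted p = 1.0).

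Reg3d, related to the islet neogenesis-associated protein, belongs by name to the Reg3 genes. Its values ran more closely with those of Reg2 than with those of Reg3a, Reg3b or Reg3g. The WT libraries stood at 146 CPM (WT-2404), 538 (WT-1860) and 1203 (WT-2067), the Het libraries at 998, 1196 and 620 CPM, and the KO libraries at 1019, 608, 421 and 1127 CPM. The ranges of the 3 groups overlapped, with WT, Het and KO means of 629 ± 534, 938 ± 293 and 794 ± 334 CPM. The log2 differences were 0.34 for KO against WT (SE 0.59, edgeR adjusted p = 0.755), 0.58 for Het against WT (SE 0.63, edgeR adjusted p = 0.612) and -0.24 for KO against Het (SE 0.58, edgeR adjusted p = 1.0). Without WT-2404 the sign for KO against WT turned to -0.15 and Het against WT was 0.11, and with library size alone both comparisons with WT were below 0.

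Reg3b, the pancreatitis-associated protein, had its highest level in WT-2067 and its lowest in KO-2070. Its levels were 1923, 1465 and 4060 CPM in WT-2404, WT-1860 and WT-2067, and 2805, 3254 and 856 CPM in the Het libraries. The KO libraries KO-2079, KO-2070, KO-2124 and KO-2126 stood at 1718, 139, 529 and 1073 CPM. In 3 of the 4 KO libraries Reg3b was below every WT library, and KO-2079 was above WT-1860. The WT, Het and KO means were 2483 ± 1385, 2305 ± 1275 and 865 ± 686 CPM. The log2 difference was -1.52 for KO against WT (SE 0.73, edgeR adjusted p = 0.227, exact permutation p = 0.143, two-sided), -0.11 for Het against WT (SE 0.78, edgeR adjusted p = 0.947) and -1.41 for KO against Het (SE 0.73, edgeR adjusted p = 1.0).

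Reg3a ran in parallel at a lower level. It was read at 800.3, 920 and 1693 CPM in WT-2404, WT-1860 and WT-2067, at 858, 1336 and 421 CPM in the Het libraries, and at 959, 54.4, 164 and 407 CPM in KO-2079, KO-2070, KO-2124 and KO-2126. Again 3 KO libraries lay below every WT library, and KO-2079 lay within the WT range. The log2 difference was -1.52 for KO against WT (SE 0.76, edgeR adjusted p = 0.247, exact permutation p = 0.143, two-sided), -0.38 for Het against WT (SE 0.82, edgeR adjusted p = 0.809) and -1.14 for KO against Het (SE 0.76, edgeR adjusted p = 1.0).

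Reg3g, the antibacterial lectin of the gut, was the member whose KO and WT ranges did not overlap. Its levels were 214, 302 and 597 CPM in WT-2404, WT-1860 and WT-2067, 316, 478 and 167 CPM in the Het libraries, and 209, 6.45, 69.7 and 129 CPM in KO-2079, KO-2070, KO-2124 and KO-2126. The gap between the groups was narrow, from 209 CPM in KO-2079 to 214 CPM in WT-2404, and the Het library at 167 CPM fell inside the KO range. The value of KO-2070 rests on 49 counts. The WT, Het and KO means were 371 ± 200, 320 ± 155 and 104 ± 86.4 CPM. The log2 difference was -1.84 for KO against WT (SE 0.81, unadjusted p = 0.0442 and adjusted p = 0.202 in edgeR, exact permutation p = 0.114, two-sided). It was -0.21 for Het against WT (SE 0.86, edgeR adjusted p = 0.903) and -1.62 for KO against Het (SE 0.80, edgeR adjusted p = 1.0).

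For KO against WT, 1 of the 6 tested members, Reg3g, had an unadjusted p under 0.05 and a lower level in edgeR, where 13.9% of all tested genes did, and 1 of 6 had separate and lower ranges, where 9.17% of all tested genes did. Over the 6 members the median log2 difference was -0.82 for KO against WT, with 2 higher and 4 lower, beside a median of 0.025 over all tested genes, 48.2% of which were below 0. For Het against WT the members' median was 0.21, with 3 higher and 3 lower, where 49.7% of all tested genes were below 0. In that comparison 1 member, Reg1, had separate ranges, as did 24.8% of all tested genes in either direction, 0 members had separate and lower ranges (13.5% of all) and 0 had an unadjusted p under 0.05 and a lower level in edgeR (11.6% of all). For KO against Het all 6 members were below 0, with a median of -0.89, against 48.6% of all tested genes. There 0 members had separate ranges, where 2.46% of tested genes did in either direction and 1.16% with lower levels, and 0 had an unadjusted p under 0.05 and a lower level in edgeR, where 0.351% did. Without WT-2404 the members' median was -1.10 for KO against WT, with 1 higher and 5 lower, and -0.078 for Het against WT, with 3 higher and 3 lower. Then 0 members had an unadjusted p under 0.05 and a lower level in edgeR for KO against WT, where 5.29% of all tested genes did. The counts over all libraries lie near the shares over all genes for the ranges and the unadjusted p. Reg3a, Reg3b and Reg3g varied together, as did Reg2 and Reg3d, so the 6 neighbouring members are not all independent of each other.

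For KO against WT, the scale on which levels were read moved Reg3a, Reg3b and Reg3g more than any other choice tried. With library size alone, Reg3a was at 1436 to 2828 CPM in WT, 361 to 851 in Het and 34.3 to 853 in KO libraries. On that scale Reg3b was at 2287 to 6798, 733 to 2330 and 87.6 to 1528 CPM, and Reg3g at 472 to 756, 143 to 304 and 4.07 to 186 CPM. All 3 genes then had KO libraries below every WT library, where 5.64% of tested genes did, and all 3 passed in edgeR, with log2 differences of -2.50 for Reg3a (adjusted p = 0.0321), -2.50 for Reg3b (adjusted p = 0.0318) and -2.69 for Reg3g (adjusted p = 0.0318). The same setting called 20.7% of all tested genes, every one of them lower in KO, and moved the median over all genes to -1.17 for KO against WT and -1.36 for Het against WT. Relative to that median the 3 differences were -1.34, -1.34 and -1.52. On the same scale Het against WT had 3 members, Reg2, Reg3a and Reg3g, with separate and lower ranges, where 33.6% of tested genes did, and 0 members past the threshold, where 22.8% of genes were. Reg1 had separate and higher ranges there, at 6200 to 15980 CPM in WT and 17191.5 to 21172 CPM in Het libraries. Its log2 difference was 0.60 (edgeR adjusted p = 0.273). The share of all genes with separate and higher ranges on this scale was not worked out. KO against Het had 0 members with separate and lower ranges, where 0.168% of genes did. Under TMM the KO against WT difference of Reg3a, Reg3b and Reg3g was below 0 in every alternative run, and leaving out 1 library at a time moved it from -2.45 to -1.11 for Reg3a, from -2.10 to -0.96 for Reg3b and from -2.43 to -1.30 for Reg3g. The smallest sizes came without WT-2067, and the largest without KO-2079. Without WT-2404 they were -1.71, -1.68 and -2.11 (edgeR adjusted p = 0.549, 0.535 and 0.534), and without KO-2070 they were -1.16, -1.17 and -1.45. For Het against WT the 3 differences were -0.58, -0.26 and -0.49 without WT-2404 (edgeR adjusted p = 0.855, 0.933 and 0.891).

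**Figure D2:**
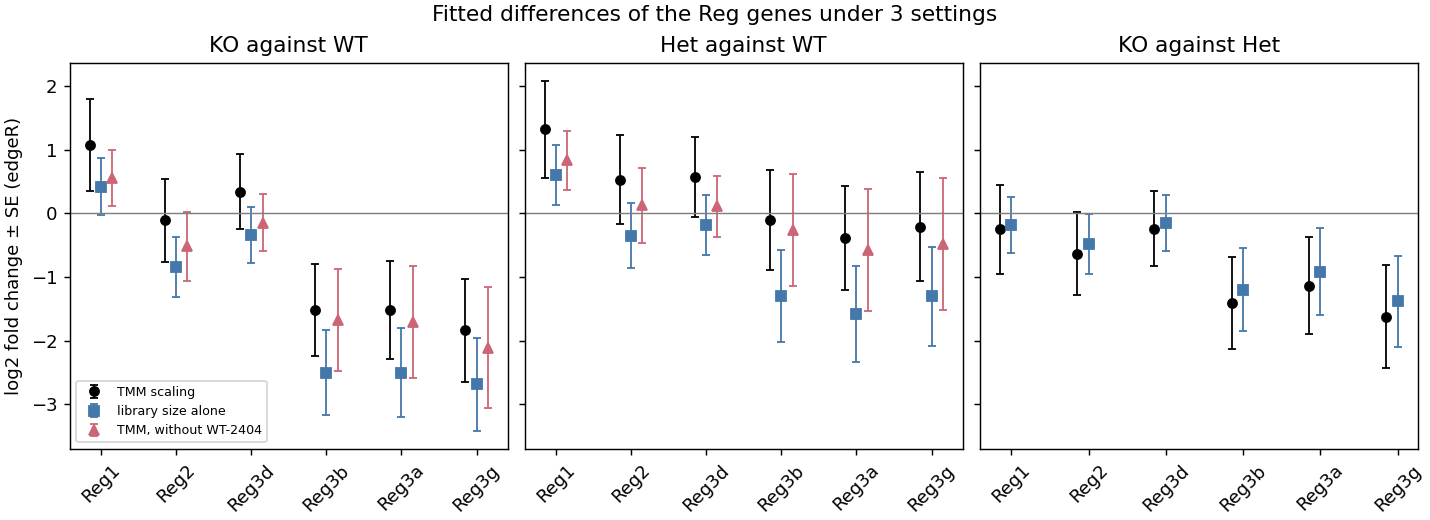
Fitted log2 differences with their standard errors for 6 Reg genes in the 3 genotype comparisons, from edgeR with TMM scaling, with library size alone, and with TMM after leaving out WT-2404. For KO against WT the points of Reg3a, Reg3b and Reg3g lie below 0 under all 3 settings, and those of Reg3d change sign between settings (0.34, -0.35 and -0.15).

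The mix of Reg transcripts within a library does not depend on how the library is scaled. Reg1 made up 23.0%, 49.3% and 45.4% of the Reg counts in WT-2404, WT-1860 and WT-2067, 60.3%, 56.9% and 68.3% in the Het libraries, and 48.7%, 83.0%, 74.7% and 71.1% in KO-2079, KO-2070, KO-2124 and KO-2126. Reg3a, Reg3b and Reg3g together made up 38.5%, 13.7% and 15.8% in the WT libraries, 9.42%, 10.1% and 4.91% in the Het libraries, and 8.69%, 0.670%, 3.77% and 4.29% in the KO libraries. Every Het and KO library was thus below every WT library in this share, with WT-2404 or without it, with WT, Het and KO means of 22.7% ± 13.8, 8.16% ± 2.84 and 4.36% ± 3.30. Such a share also falls when Reg1 rises, and Reg1 itself was higher in every Het than in every WT library. Against Reg1, 57.1% of all tested genes had separate and lower ratios for Het against WT, and 11.9% for KO against WT. Reg2 made up 34.3% to 36.5% in WT, 24.7% to 30.6% in Het and 14.3% to 39.5% in KO libraries. Reg3d kept a small and even share, 1.92% to 3.07% over all 10 libraries.

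**Figure D3:**
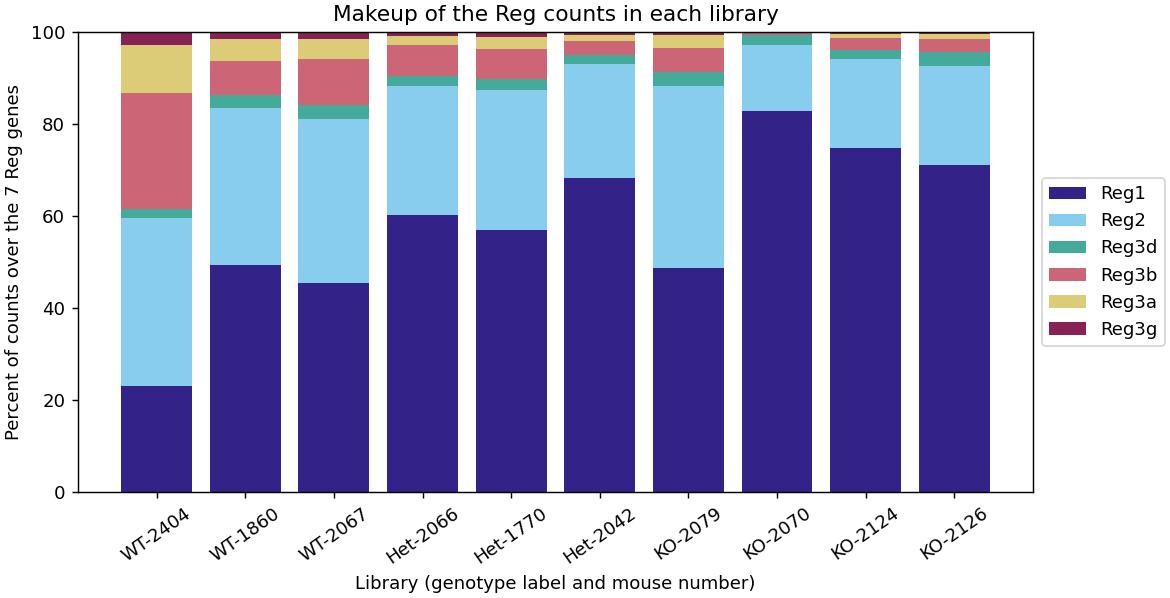
Share of each Reg gene in the counts over the 7 Reg genes, in percent, with a stacked bar for each library. The share of Reg3a, Reg3b and Reg3g together is 13.7% to 38.5% in the WT bars and 0.670% to 10.1% in the Het and KO bars. This share also depends on the counts of Reg1.

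Measured against Reg1 in the same library, Reg3a was at a log2 ratio of -3.43 to -1.13 in WT, -5.58 to -4.41 in Het and -8.83 to -4.08 in KO libraries. The ratio of Reg3b to Reg1 was -2.72 to 0.13, -4.55 to -3.13 and -7.48 to -3.24, and that of Reg3g to Reg1 -5.00 to -3.04, -6.91 to -5.89 and -11.9 to -6.27. For KO against WT, 3 of the 5 other tested members, Reg3a, Reg3b and Reg3g, had separate and lower ratios to Reg1, where 11.9% of all tested genes did. For Het against WT all 5 did, where 57.1% of all tested genes did, so the Het result is close to what most genes show against Reg1. For KO against Het 0 of 5 did, where 0.0658% of tested genes did.

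The summed level of the family was 7625, 19632 and 40071 CPM in the WT libraries, 29402 to 49946 CPM in the Het and 20216 to 37507 CPM in the KO libraries. The WT, Het and KO means were 22443 ± 16405, 40533 ± 10379 and 30186 ± 7356 CPM, with overlapping ranges. With library size alone the WT and Het means came close together, at 30931 ± 4133 and 30699 ± 5049 CPM, and the KO mean was 24553 ± 4871 CPM.

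Reg4, a member expressed in secretory cells of the gut, was at the limit of what these libraries can show. WT-2404 gave 4 counts of it, WT-1860 gave 2 and the other 8 libraries 0, and it did not reach the count filter. No difference between groups was detectable at this depth, where a count of 0 allows up to 0.158 to 0.249 CPM of unscaled gene counts in those 8 libraries.

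Reg3a, Reg3b and Reg3g varied together from mouse to mouse. Across the 10 libraries, log2 CPM of Reg3a and Reg3b had Pearson r = 0.98 and Spearman rho = 0.89 (permutation p adjusted over 15 pairs = 0.00025 and 0.005). Reg3a and Reg3g had r = 0.97 and rho = 0.92 (0.00015 and 0.0032), and Reg3b and Reg3g r = 0.97 and rho = 0.95 (0.00025 and 0.0013). These relations held without the 2 libraries farthest from the median, KO-2070 and KO-2124, with r of 0.91, 0.93 and 0.90, and for deviations from the genotype means, with r of 0.96, 0.95 and 0.94. Among all 13687 other tested genes, Reg3b had the highest r with Reg3a, and Reg3g the next. For Reg3b the nearest gene was Reg3a and the next Reg3g, and for Reg3g Tmc5 alone lay nearer than these 2. The 3 genes lie in the cluster apart from each other, with Reg3d between Reg3b and Reg3a, and with Reg2 and Reg1 between Reg3a and Reg3g.

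Reg2 and Reg3d also varied together, with r = 0.89 and rho = 0.94 (permutation p adjusted over 15 pairs = 0.00052 and 0.0013), r = 0.86 without WT-2404 and Het-1770, and r = 0.94 within genotypes. Reg3d was the third nearest of all genes to Reg2, while for Reg3d Reg2 ranked 91 and Reg1 143 among 13687 genes. With Reg3a, Reg3b and Reg3g, Reg3d had r of 0.25, 0.27 and 0.24 (adjusted permutation p = 0.58 for each). The rho values were 0.59, 0.55 and 0.49 (adjusted permutation p = 0.12, 0.14 and 0.19), and r within genotypes was 0.56, 0.52 and 0.49. The r of Reg2 with Reg3a, Reg3b and Reg3g was 0.63, 0.62 and 0.59, and rho was 0.75, 0.66 and 0.64 (adjusted permutation p = 0.092, 0.092 and 0.097 for r, and 0.053, 0.095 and 0.1 for rho). The r was 0.87, 0.87 and 0.76 without WT-2404 and Het-1770, and r within genotypes was 0.78, 0.72 and 0.68. Reg1 and Reg3d had r = 0.88 and rho = 0.68 (adjusted permutation p = 0.021 and 0.086), but r dropped to 0.44 without WT-2404 and WT-1860, so that relation rests on those 2 libraries. Reg1 and Reg2, the most similar pair in sequence, had r = 0.63 and rho = 0.61 (adjusted permutation p = 0.074 and 0.11), and r = 0.21 without the same 2 libraries. Reg1 did not follow the inducible set, with r of -0.18, -0.14 and -0.13 with Reg3a, Reg3b and Reg3g (adjusted permutation p = 0.67 for each). KO-2070 shows the separation within 1 mouse: its Reg1 level of 24725 CPM was above every WT library, and its Reg3b level of 139 CPM was the lowest of all. All of these values share the scaling of their library.

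**Figure D4:**
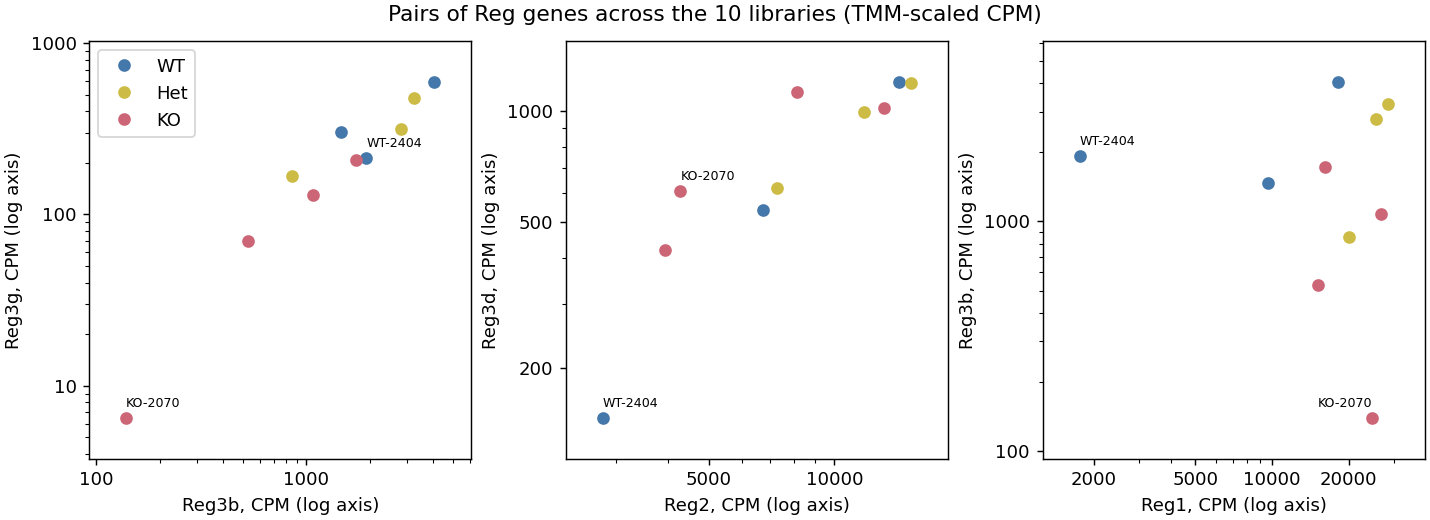
Levels of 3 pairs of Reg genes in the 10 libraries, in TMM-scaled CPM on log axes, with points coloured by genotype label (WT, Het, KO). Reg3g follows Reg3b (r = 0.97) and Reg3d follows Reg2 (r = 0.89) over the libraries, whereas Reg3b and Reg1 show no such line (r = -0.14).

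Genes outside the family whose levels were most like those of each member are given as a description over the 10 libraries, with no p. For Reg1 they were Tmed6, a protein of the secretory pathway (r = 0.99, rho = 0.93), Serpini2, a pancreatic serine protease inhibitor (r = 0.99, rho = 0.95), and Tff2, a secreted trefoil peptide (r = 0.99, rho = 0.93). For Reg2 they were Agpat2 (r = 0.91, rho = 0.90), Mrpl36 (r = 0.90, rho = 0.90) and Ccdc64b (r = 0.89, rho = 0.95), all at low levels, such as 8.78 CPM of Agpat2 in WT. For Reg3d they were Itih4, an acute-phase protein (r = 0.96, rho = 0.93), Clstn3 (r = 0.95, rho = 0.70) and Qpctl, an enzyme of the Golgi (r = 0.94, rho = 0.87). Reg3a was most like Lrg1, an acute-phase glycoprotein (r = 0.93, rho = 0.73), Opa3 (r = 0.92, rho = 0.68) and Tmc5 (r = 0.91, rho = 0.81). Tmc5 and Opa3, with Wdr72, were also the 3 nearest to Reg3b and to Reg3g, with r of 0.90 to 0.94 and of 0.92 to 0.98. Lrg1 was at 43.2 CPM in WT, 25.9 in Het and 16.4 in KO libraries on average, and Tmc5 at 13.0, 11.7 and 7.24 CPM, and neither passed for KO against WT (log2 differences of -1.39 and -0.82, edgeR adjusted p = 0.133 and 0.215).

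Of 21 genes listed for the Reg receptor and for the cytokines that induce Reg3 genes, 16 had enough counts to be tested, and 0 passed in any comparison in edgeR. For KO against WT 7 were higher and 9 lower, with a median log2 difference of -0.047, and at an unadjusted p under 0.05 there were 2 higher and 3 lower, where 9.60% of all tested genes were higher and 13.9% lower. DESeq2, which called 7.68% of all genes with an adjusted p, placed 3 of the 16 past the threshold for KO against WT, Lifr with a higher level and Osmr and Socs3 with lower levels, and Osmr and Socs3 for Het against WT. For Het against WT 7 were higher and 9 lower (median -0.065), and for KO against Het 12 were higher and 4 lower (median 0.052). Without WT-2404, 8 were higher and 8 lower both for KO against WT (median 0.020) and for Het against WT (median 0.019). Of the listed ligands, Il22 and Il17a had 0 counts in all libraries, and Il6, Osm and Il11 had 60, 76 and 26 counts over all 10 libraries and were not tested. Lif, a ligand of the interleukin-6 family named here after its values were seen, had 475 counts, with WT, Het and KO means of 3.40 ± 0.818, 1.204 ± 0.868 and 1.18 ± 0.742 CPM. Every Het and KO library was below every WT library in Lif. Separate and lower ranges were found for 9.17% of all tested genes for KO against WT and 13.5% for Het against WT. The log2 difference of Lif was -1.50 for KO against WT (SE 0.61, edgeR adjusted p = 0.174) and -1.46 for Het against WT (SE 0.67, edgeR adjusted p = 0.249). The receptor gene Lifr went the other way, with every Het and KO library above every WT library. It was at 41.1 to 107 CPM in WT, 109 to 134 in Het and 121 to 176 in KO libraries. Separate ranges in either direction were found for 15.9% of tested genes for KO against WT and 24.8% for Het against WT. The log2 difference of Lifr was 0.96 for KO against WT (SE 0.31, edgeR adjusted p = 0.125). For Het against WT it was 0.77 (SE 0.32, edgeR adjusted p = 0.219). Extl3, the described Reg receptor, had WT, Het and KO means of 76.5 ± 47.7, 127 ± 7.75 and 139 ± 38.8 CPM, with a KO against WT log2 difference of 0.86 (SE 0.39, edgeR adjusted p = 0.205).

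Among the receptor chains named, 0 passed in edgeR. Il6st, the shared signalling chain of the interleukin-6 family, and Il6ra, the receptor of interleukin-6, had KO against WT log2 differences of -0.045 and -0.049 (edgeR adjusted p = 0.894 and 0.913). Il17ra, a chain of the interleukin-17 receptor, had -0.14 (edgeR adjusted p = 0.747). The oncostatin M receptor gene Osmr had WT, Het and KO means of 16.3 ± 3.32, 9.05 ± 0.441 and 9.01 ± 2.32 CPM, with every Het and KO library below every WT library. The highest KO library, at 12.2 CPM, was close to the lowest WT library, at 12.5 CPM. Separate and lower ranges were found for 9.17% of all tested genes for KO against WT and 13.5% for Het against WT. The log2 difference of Osmr was -0.85 for KO against WT (SE 0.22, edgeR adjusted p = 0.116) and -0.85 for Het against WT (SE 0.24, edgeR adjusted p = 0.183). Il22ra1, a chain of the interleukin-22 receptor, had WT and KO means of 25.0 ± 17.3 and 53.5 ± 23.7 CPM, with a log2 difference of 1.11 (SE 0.50, edgeR adjusted p = 0.214).

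Downstream of these receptors, the transcription factor gene Stat3 had WT, Het and KO means of 52.1 ± 5.27, 44.6 ± 9.79 and 41.4 ± 4.83 CPM, with a KO against WT log2 difference of -0.33 (SE 0.20, edgeR adjusted p = 0.316). Its feedback inhibitor and target Socs3 had WT, Het and KO means of 17.1 ± 3.37, 7.52 ± 0.767 and 8.77 ± 3.36 CPM, with no overlap of either group with WT. The gap to KO was narrow, from 13.3 CPM in the highest KO to 14.0 CPM in the lowest WT library. Over all tested genes, 9.17% had separate and lower ranges for KO against WT and 13.5% for Het against WT. The log2 difference of Socs3 was -0.94 for KO against WT (SE 0.26, edgeR adjusted p = 0.116) and -1.19 for Het against WT (SE 0.29, edgeR adjusted p = 0.183). For KO against Het it was 0.24 (SE 0.27, edgeR adjusted p = 1.0), a sign opposite to that of Reg3a, Reg3b and Reg3g in the same comparison. The difference between those signs was not tested.

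In marker lists of the cell types the piece could hold, 0 genes passed in edgeR in any comparison. For KO against WT, 16 of 16 myeloid markers, 11 of 11 lymphoid, 11 of 12 fibroblast, 11 of 14 ductal, 5 of 5 tuft and 12 of 15 gastric and intestinal type markers were lower, and 31 of 31 acinar, 18 of 21 islet, 6 of 7 endothelial and 6 of 7 adipocyte markers and 7 of 8 acinar transcription factor genes were higher. Over all tested genes, 48.2% were below 0 in this comparison. A list of 12 other secreted proteins of acinar injury, led by Clu, Spink1 and C3 and sharing S100a8 and S100a9 with the myeloid list and Spp1 with the ductal list, had 11 lower. At an unadjusted p under 0.05 in edgeR 16 myeloid, 9 fibroblast, 9 ductal and 11 of these injury genes were lower, where 13.9% of all tested genes were, and DESeq2 called 11, 8, 7 and 6 of them lower, where it called 5.44% of genes lower. DESeq2 also called Spink1 of the injury list higher. Without WT-2404, 16 of 16 myeloid, 10 of 11 lymphoid, 11 of 12 fibroblast, 13 of 14 ductal and 11 of 12 injury genes were lower and 31 of 31 acinar and 14 of 21 islet genes higher. Then 2 myeloid, 8 fibroblast, 6 ductal and 4 injury genes were lower at an unadjusted p under 0.05 in edgeR, where 5.29% of all tested genes were. The summed myeloid markers stood at 533 to 2160 CPM in WT, 290 to 424 in Het and 163 to 613 in KO libraries. Fibroblast markers summed to 1626 to 5739 CPM in WT, 651 to 1309 in Het and 593 to 1473 in KO libraries, and ductal markers to 1146 to 1739, 590 to 986 and 592 to 981 CPM. Among defining markers, Dnase1 of the acinar list and Cdx2 of the gastric and intestinal list were at 0 in all libraries, and the myeloid, fibroblast, lymphoid and ductal lists had none at 0. For Het against WT, 16 of 16 myeloid, 11 of 11 lymphoid, 12 of 12 fibroblast and 10 of 14 ductal markers were lower. So were 5 of 5 tuft, 12 of 15 gastric and intestinal type and 11 of 12 injury genes, and 49.7% of all tested genes. Higher were 31 of 31 acinar, 20 of 21 islet, 7 of 7 endothelial and 7 of 7 adipocyte markers. Of the acinar transcription factor genes 7 of 8 were higher. In edgeR 16 myeloid, 9 fibroblast, 8 ductal and 11 injury genes were then lower at an unadjusted p under 0.05, beside 11.6% of all. Without WT-2404, 16 of 16 myeloid, 11 of 11 lymphoid, 11 of 12 fibroblast and 12 of 14 ductal markers were lower in Het. Then 11 of 12 injury genes were lower, and 30 of 31 acinar and 18 of 21 islet markers higher. There 2 myeloid, 4 fibroblast, 3 ductal and 3 injury genes were lower at edgeR's unadjusted p under 0.05, beside 497 of 13768 genes. The part of these cell types in the Reg differences was not tested. For KO against Het, where all 6 Reg genes were below 0, 21 of 21 islet, 7 of 7 adipocyte, 13 of 15 gastric and intestinal type, 12 of 14 ductal, 8 of 12 fibroblast, 19 of 31 acinar, 3 of 5 tuft, 4 of 7 endothelial, 7 of 16 myeloid, 1 of 11 lymphoid and 6 of 12 injury genes and 1 of 8 acinar transcription factor genes were lower. Of all tested genes, 48.6% were below 0 there.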

How the data were processed

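RNA was sequenced from 10 pancreas pieces, with 1 library per mouse. The authors deposited a table of raw read counts, whole numbers not yet scaled, with gene symbols as rows and a column for each mouse named by genotype and mouse number (0 columns of no sample). Per the submitters' processing notes, DRAGEN, STAR and Cufflinks and the build mm10 were used, without a stated role or order. The counting step, the annotation and the use of strand are not given in the sources used here. Counts of near-identical genes could be split or lost by that step. Not used were 2 rows that name no gene, for reads outside genes (2.59% to 8.71% of a library's counts) and for ambiguous reads (0.101% to 0.584%). A further part of the genotype, shared by all groups, is not reported here.

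Of 24421 genes, 6269 had no count and 13688 passed filterByExpr (minimum count 10) in edgeR 4.0.16 (R 4.3.3). The test was edgeR's two-sided quasi-likelihood test (robust glmQLFit, then glmQLFTest), from a single fit of the 10 libraries, with TMM factors, no covariates and Benjamini-Hochberg adjustment over all tested genes, threshold 0.05. DESeq2 1.42.0 was an alternative. The code was tested on simulated data. Single genes were also compared by exact permutation of log2 CPM (prior count 2) over mice (35 splits for 4 against 3). Correlations used 100000 permutations. No library pair of a group agreed within sampling noise (chi-square per degree of freedom of 26.5 or more), and each was 1 replicate; whether mice shared litters or days is not stated. Wilson intervals and the limits set by a count of 0 describe counting error only, since no molecular identifiers are mentioned in the sources used here and reads then need not be independent molecules.

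Positions are from GENCODE vM21 (GRCm38) and promoter sequences from RefSeq (GRCm38.p6), where all 7 members matched by symbol. Longer GENCODE transcripts of Reg1, Reg2 and Reg3b begin upstream of the printed windows.

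The 7 Reg genes and the 14 gene lists were chosen with earlier results of these data known. Named genes were the 7 members, 8 genes of the receptor and cytokine list, the 3 genes most like each member and up to 3 genes of each other list with the most counts. Alternatives were library size alone, TMM without acinar markers, DESeq2, no count filter beyond 1 count, fits of 2 groups, another prior count (0.5), and each library left out in turn.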

Additional observations from a re-analysis of the deposited data

Results flagged for a closer look

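The log2 ratio of Reg3g to Reg3b counts in KO-2070 was -4.43, far from the other 3 KO libraries, which stood between -3.05 and -2.93. Its gap to the nearest of them took 0.916 of the range of the 4 libraries, above Dixon's critical value for 4 samples. The value rests on 49 Reg3g counts. Of 30 measures looked at in this way 1 stood out, where about 1.5 would by chance, since about 1 group in 20 does.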

How the results depend on the processing

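No paired analysis was possible because the mouse numbers in the labels are not shared between groups. The count of genes past the threshold, 0 in edgeR for each comparison, became 2835 for KO against WT and 3125 for Het against WT with library size alone (all lower), and 1009 and 400 with DESeq2. Leaving out 1 library gave 0 to 1933 genes for KO against WT and 0 to 1158 for Het against WT, where the highest values came without WT-2067 and all others were 0. The cause was not tested. For KO against Het the count stayed at 0 in all 12 alternatives.

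Of the members' log2 differences, 69 of 78 alternatives for KO against WT kept direction and side of the threshold, as did 59 of 66 for Het against WT and 72 of 72 for KO against Het. The 3 that crossed the threshold were Reg3a, Reg3b and Reg3g with library size alone, given above. Signs reversed for KO against WT in Reg2, to 0.64 without WT-2067, 0.078 without KO-2070 and 0.090 without KO-2124 (-0.55 to 0.64 over single libraries left out), and in Reg3d, to -0.35 with library size alone, -0.15 without WT-2404 (-0.15 to 1.22 over single libraries left out) and -0.034 without WT-2404 and KO-2070 together, an alternative chosen after seeing the data. Signs reversed for Het against WT with library size alone in Reg2 (-0.36) and Reg3d (-0.19), without WT-2067 in Reg3a (0.025), Reg3b (0.45) and Reg3g (0.32), and without Het-2042 in Reg3b (0.29) and Reg3g (0.10). Over single libraries left out, these 3 ran from -0.83 to 0.025, from -0.44 to 0.45 and from -0.62 to 0.32. Depth limits Reg4, with 6 counts in all, and Reg3g in KO-2070.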
